A study of Homo sapiens with 12 samples.

Results

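Contractile smooth muscle genes were followed in IMR90 cells, a line of human lung fibroblasts, as the cells became senescent and as senescent cells were given kinase inhibitors. The genes were named individually for their role in smooth muscle, with no threshold on measured values. The set holds 10 genes, ACTA2, ACTG2, MYL9, MYH11, TPM1, TPM2, CNN1, CALD1, TAGLN and LMOD1, of the 16383 genes listed in the deposited table. Of these, 9 reached a mean of 10 normalized counts over all libraries and were tested with 11242 genes in all, and MYH11 did not.

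The study measured poly(A) RNA by sequencing in 4 groups of 3 libraries, and all cells were wild type. Proliferating cells had no treatment. The other groups received 20 Gy of ionizing radiation within 10 min and were harvested on day 11. They were given DMSO, the solvent control, or 2 µM palbociclib, an inhibitor of the cell cycle kinases CDK4 and CDK6, or 2 µM ruxolitinib, an inhibitor of the Janus kinases, with the drugs added on day 4 and again on day 6, 8 and 10. Proliferating cells differ from the irradiated groups in radiation, solvent and growth state together, and those cannot be told apart here. The labels do not say whether replicates were separate cultures, so p-values measure the spread between these libraries, which may be technical. RNA was taken from whole cultures, in which fewer cells making a transcript and less of it per cell cannot be told apart.

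Smooth muscle shortens when myosin heads pull on actin filaments that are dressed with tropomyosin, caldesmon and calponin. Many of these genes are switched by serum response factor (SRF), which binds CArG boxes, short AT-rich sequences between CC and GG, together with the coactivators myocardin (MYOCD), MRTFA and MRTFB. The MRTF proteins are held in the cytoplasm by unpolymerized actin, so the state of the actin filaments feeds back on the genes that build them. Fibroblasts switch on part of the same set when they become myofibroblasts, the contractile cells of wounds and scars, under TGF-beta and on stiff surfaces, and ACTA2 is their usual marker.

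The sequences upstream of 3 members are shown because CArG boxes are the element through which the set is classically controlled. RefSeq promoter windows (GRCh38.p14) were found for 7 of the 10 members, in 12 windows, and not for TAGLN, MYL9 or MYH11. The CArG box was searched on both strands in the 250 bases before each start, and because its form is a palindrome each box was counted once. An exact box was present in 1.16% of all 35116 windows, and a box that was exact or had 1 core base other than A or T in 7.04%. ACTG2 (chr2:73892878-73893007, plus strand) had 2 exact boxes, beginning 110 and 73 bases before the start. ACTA2 (chr10:88952774-88952903, minus strand) had 2 boxes with 1 such core base, beginning 121 and 71 bases before the start of the window shown, and its other window had none. At least 2 boxes of either kind were present in 0.587% of windows. CALD1 (chr7:134711369-134711498, plus strand) had 1 box with 1 such core base in 1 of its 4 windows, 26 bases before the start. The windows of CNN1, LMOD1, TPM1 and TPM2 held none. The 130 bases before each start are given 5′ to 3′ with the boxes in capitals.
ACTG2: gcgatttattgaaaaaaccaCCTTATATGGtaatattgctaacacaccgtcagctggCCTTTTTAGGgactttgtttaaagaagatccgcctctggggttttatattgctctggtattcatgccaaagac
ACTA2: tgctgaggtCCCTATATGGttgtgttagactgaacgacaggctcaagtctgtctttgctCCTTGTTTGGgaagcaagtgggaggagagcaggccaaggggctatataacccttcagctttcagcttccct
CALD1: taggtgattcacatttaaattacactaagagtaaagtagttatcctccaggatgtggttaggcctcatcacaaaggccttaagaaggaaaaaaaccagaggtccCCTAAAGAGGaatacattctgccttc

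The recovered reads per library summed to between 14106799 and 21762412 over the listed genes. CDKN1A, the p21 inhibitor of the cell cycle, was higher and LMNB1 and MKI67, genes of dividing cells, were lower in all 3 groups of irradiated libraries than in the proliferating ones. The irradiated groups were not alike in these genes. All 3 genes were called lower with palbociclib than with DMSO, at a median log2 fold change of -2.24, and than with ruxolitinib, at -2.01. Of all tested genes, 22.3% and 17.6% were called lower in those comparisons. The summed level of 9 fibroblast markers ran from 405445 normalized counts in the lowest DMSO library to 848330 in the highest proliferating one. The 10 markers of differentiated smooth muscle summed to 5422 to 7863 over the 12 libraries, most of it SMTN and LMOD1. Of these, MYH11, KCNMB1 and CASQ2 had 2 reads or fewer in any library and PLN had 6 or fewer. The 16 skeletal and cardiac muscle genes summed to 39.0 to 127 normalized counts. Scaling every library to the same total instead of by the authors' factors moved the median tested gene by 0.23 (log2) between DMSO and proliferating cells and by -0.23 between palbociclib and DMSO. All changes are given on the authors' scaling unless another is named.

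After irradiation the actins, calponin, transgelin, TPM1 and leiomodin of the set were lower, while MYL9, TPM2 and CALD1 were not called. With palbociclib all 9 measured genes were higher than with DMSO, by 1.63 to 2.48 times, and 6 of them were above the proliferating level. With ruxolitinib the levels lay close to those with DMSO. The plot of normalized counts by library shows the 9 genes.

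**Figure D1:**
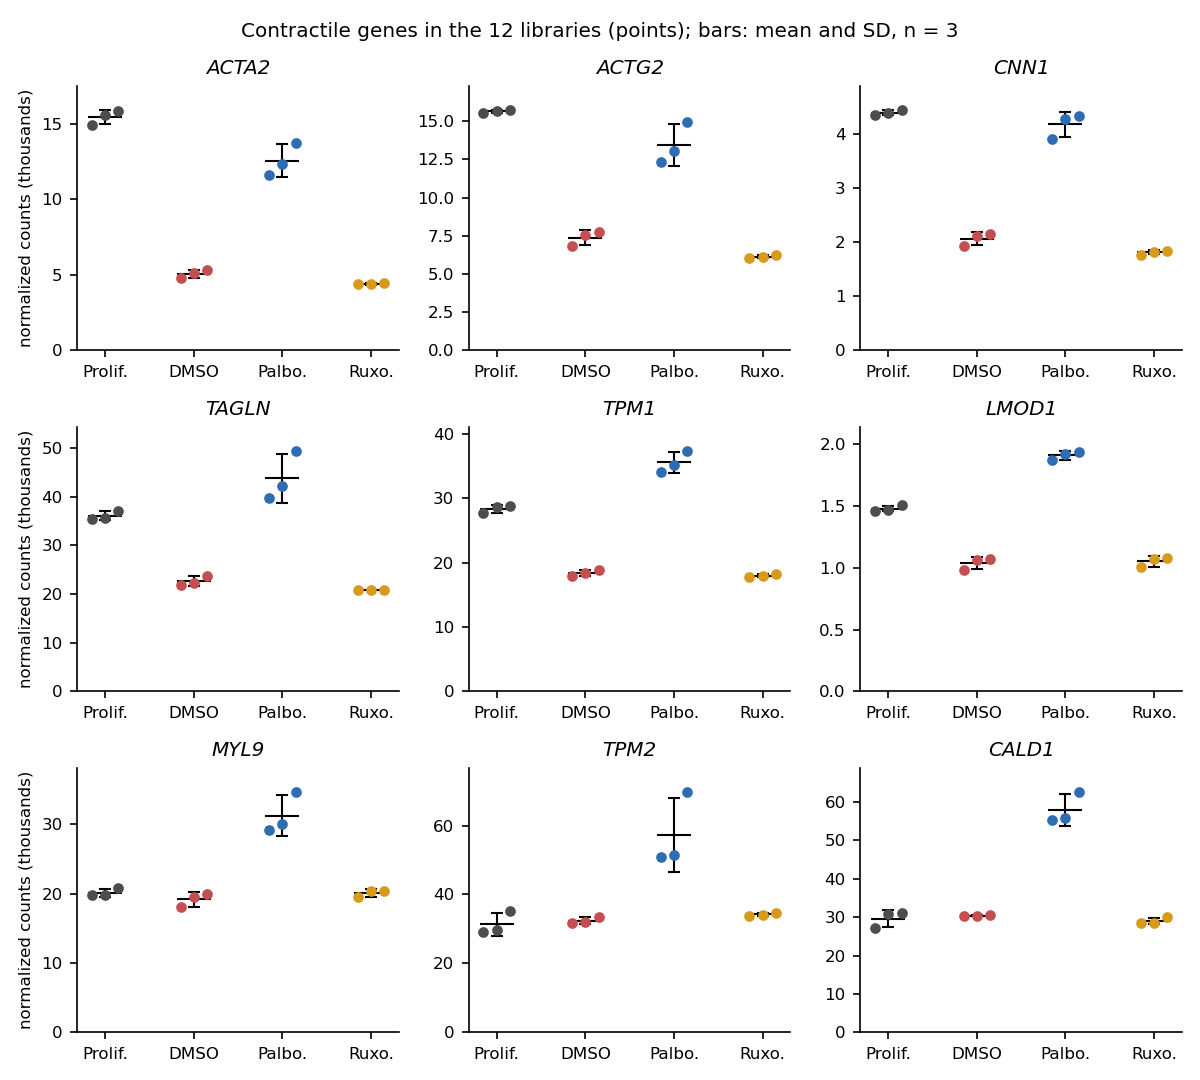
Normalized counts divided by 1000 (y axis, from 0) of 9 contractile genes in proliferating cells (Prolif.) and in irradiated cells given DMSO, palbociclib (Palbo.) or ruxolitinib (Ruxo.). Points are libraries, drawn in order of value within a group, and bars are the mean and SD of 3 libraries. The palbociclib libraries lie above the DMSO and ruxolitinib libraries in all 9 panels, and in the top row they do not exceed the proliferating libraries.

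ACTA2, alpha smooth muscle actin, is encoded at chromosome 10, 88935074 to 88991337 (GRCh38, minus strand), and its reference transcript (MANE Select, the agreed reference of the gene annotation) has 9 exons. It was at 15834, 14911 and 15565 normalized counts in the proliferating libraries and at 4789, 5132 and 5306 in the DMSO libraries. It was at 12330, 13742.5 and 11634 with palbociclib and at 4399, 4372 and 4486 with ruxolitinib. No library of these groups overlapped with a library of another group, so ACTA2 was highest in proliferating cells, then with palbociclib, then with DMSO and lowest with ruxolitinib. The log2 fold change was -1.61 (SE 0.06, adjusted p 1.92e-12 by limma) from proliferating to DMSO cells and 1.31 (SE 0.06, adjusted p 1.72e-10) from DMSO to palbociclib. With palbociclib ACTA2 was still lower than in proliferating cells, by a log2 fold change of -0.30 (adjusted p 0.000296).

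ACTG2, gamma smooth muscle actin of gut and bladder muscle, lies at chromosome 2, 73893008 to 73919865 (plus strand, 9 exons). Its levels were 15735, 15649.6 and 15553 in the proliferating libraries and 6806, 7735 and 7557 with DMSO. They were 12346, 14968.5 and 13038 with palbociclib and 6054, 6111 and 6243 with ruxolitinib. The order of the groups was that of ACTA2, again without overlap. Its log2 fold change was -1.09 (SE 0.06, adjusted p 5.2e-10) for DMSO against proliferating and 0.87 (SE 0.06, adjusted p 4.81e-08) for palbociclib against DMSO. The pair of actins did not move by the same amount. The ratio of ACTA2 to ACTG2 counts was 0.987 ± 0.0294 (SD, n = 3) in proliferating cells, 0.690 ± 0.0228 under DMSO, 0.936 ± 0.0555 with palbociclib and 0.720 ± 0.00582 with ruxolitinib. The ratios in proliferating and palbociclib libraries overlapped and lay above those of the other groups. Over the reference transcripts, 0 of 1300 50-base stretches of ACTA2 were shared with another gene and 2 of 1452 of ACTG2, with members of the POTE family. Of TAGLN, 2449 of 3737 such stretches (65.5%) were shared with an unnamed gene model at the same place, and 0 were shared for the other members except MYH11 (51 of 6831).

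The myosin members behaved differently from the actins. MYL9, the regulatory light chain whose phosphorylation starts smooth muscle contraction, lies at chromosome 20, 36541519 to 36551447 (plus strand, 4 exons). It was at 19725, 20759 and 19824 normalized counts in the proliferating libraries and at 17999, 20001 and 19448 with DMSO. It was at 29105, 34609 and 29971 with palbociclib and at 19439, 20353 and 20388 with ruxolitinib. The proliferating, DMSO and ruxolitinib libraries overlapped, and the palbociclib libraries lay above them all. The log2 fold change of DMSO against proliferating was -0.07 (95% interval -0.21 to 0.06, adjusted p 0.325), and it became 0.16 (adjusted p 0.0337) with all libraries at the same total. The log2 fold change of palbociclib against DMSO was 0.70 (SE 0.06, adjusted p 3.77e-07).

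MYH11, the smooth muscle myosin heavy chain and the gene most specific to differentiated smooth muscle, lies at chromosome 16, 15703135 to 15857028 (minus strand, 41 exons). It had no read in the proliferating and ruxolitinib libraries, 0, 1.18 and 0 normalized counts with DMSO and 0, 2.19 and 0.888 with palbociclib. The highest library held 2 reads, so no comparison between groups was possible at this depth. The heavy chains measured in these cells were the non-muscle ones described below.

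TPM1 and TPM2, the tropomyosins, are coiled coils that lie along the actin filament. TPM1 (chromosome 15, 63042747 to 63071915, plus strand, 10 exons) was at 28586, 28704 and 27647 in the proliferating libraries and at 18391, 18862 and 17985 with DMSO. It was at 35190.1, 37299.8 and 34089 with palbociclib and at 17939, 18196 and 17782 with ruxolitinib. The palbociclib libraries were the highest, the proliferating ones next, and those with DMSO and ruxolitinib overlapped. The log2 fold change was -0.62 (SE 0.05, adjusted p 9.94e-09) after irradiation and 0.95 (SE 0.05, adjusted p 4.84e-10) with palbociclib against DMSO.

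TPM2 (chromosome 9, 35681993 to 35690056, minus strand, 9 exons) followed MYL9 rather than TPM1. Its levels were 29593, 35238.5 and 29156 in the proliferating libraries and 31964, 33535 and 31677 with DMSO. They were 50764, 69711 and 51564 with palbociclib and 33899, 34729.6 and 34129.9 with ruxolitinib. The palbociclib libraries stood above all others, with library A120 far above the other palbociclib libraries. For TPM2 the log2 fold change was 0.05 (95% interval -0.16 to 0.26, adjusted p 0.641) for DMSO against proliferating and 0.81 (SE 0.10, adjusted p 9.73e-06) for palbociclib against DMSO. The palbociclib difference was 0.66 without library A120, and with all libraries forced to the same quantiles it was 0.18 (adjusted p 0.197). Under that scaling and at the same total, TPM2 was called higher with DMSO than in proliferating cells, at 0.41 and 0.28. The ratio of TPM1 to TPM2 counts was 0.910 ± 0.0828 in proliferating cells, 0.569 ± 0.00650 under DMSO, 0.630 ± 0.0836 with palbociclib and 0.525 ± 0.00414 with ruxolitinib, with every proliferating library above every irradiated one.

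CNN1, calponin, binds actin and slows the myosin motor. It lies at chromosome 19, 11538851 to 11550323 (plus strand, 7 exons). It was at 4394, 4344 and 4440.3 in the proliferating libraries and at 1925, 2146 and 2117 with DMSO. It was at 3914, 4336 and 4281 with palbociclib and at 1844, 1772 and 1820.0 with ruxolitinib. The highest palbociclib library came just under the lowest proliferating one, and the DMSO and ruxolitinib libraries lay far below. CNN1 fell after irradiation by 1.09 on the log2 scale (SE 0.05, adjusted p 6.08e-11) and was 1.02 higher with palbociclib than with DMSO (SE 0.05, adjusted p 1.01e-09). Against proliferating cells the palbociclib difference was -0.07 (95% interval -0.19 to 0.04, adjusted p 0.229).

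CALD1, caldesmon, blocks myosin binding to actin until calcium and kinases release it, and most cells make a shorter form of it than smooth muscle does. Counts per gene do not separate the forms. The gene lies at chromosome 7, 134711499 to 134970729 (plus strand, 15 exons). It was at 31106, 27148 and 30735 in the proliferating libraries and at 30339.5, 30659 and 30349 with DMSO. It was at 62609, 55765 and 55334 with palbociclib and at 28625, 29973 and 28490.3 with ruxolitinib. The DMSO libraries lay inside the proliferating range, and the palbociclib mean was 1.90 times the DMSO mean. For CALD1 the log2 fold change was 0.04 (95% interval -0.09 to 0.17, adjusted p 0.569) for DMSO against proliferating and 0.92 (SE 0.06, adjusted p 1.31e-08) for palbociclib against DMSO. The first of these was called higher under 3 other scalings, at 0.27 (same total), 0.20 (same upper quartile) and 0.34 (same quantiles).

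TAGLN, transgelin or SM22, an actin-bundling protein of the calponin family, lies at chromosome 11, 117199294 to 117207465 (plus strand, 5 exons). Its levels were 35431, 37128 and 35637 in the proliferating libraries and 21794, 23743 and 22356 with DMSO. They were 39770.5, 49375 and 42178 with palbociclib and 20796.5, 20909 and 20816 with ruxolitinib. All palbociclib libraries exceeded the proliferating ones, and all other irradiated libraries lay below them. For TAGLN the log2 fold change was -0.67 (SE 0.07, adjusted p 2.19e-07) after irradiation, 0.95 (SE 0.07, adjusted p 2.48e-08) with palbociclib against DMSO and 0.27 (adjusted p 0.00171) with palbociclib against proliferating.

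LMOD1, leiomodin, starts new actin filaments in smooth muscle cells. It lies at chromosome 1, 201896456 to 201946548 (minus strand, 3 exons) and had the lowest count of the 9 tested members in every group. It was at 1505, 1463 and 1470.3 in the proliferating libraries and at 1063, 986.1 and 1069.6 with DMSO. It was at 1921, 1939 and 1872 with palbociclib and at 1073, 1004 and 1083 with ruxolitinib. The pattern was that of TPM1, with palbociclib highest, proliferating next and the other groups overlapping. For LMOD1 the log2 fold change was -0.51 (SE 0.05, adjusted p 3.67e-07) after irradiation and 0.88 (SE 0.05, adjusted p 4.07e-09) with palbociclib against DMSO.

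The exons of some members overlap other genes, and whether the authors counted reads by strand is not given in the sources used here. On the opposite strand, FAS shares 6.88% and ACTA2-AS1 29.1% of the exon bases of ACTA2, PCSK7 shares 34.1% of those of TAGLN, and TPM1-AS shares 18.0% of those of TPM1. LMOD1 shares 13.6% of its exon bases with an opposite-strand noncoding gene. Without strand, reads of these genes and of the members cannot be told apart. On the same strand, an unnamed gene model shares 38.1% of the exon bases of TAGLN and another 7.12% of those of ACTA2, and reads there cannot be assigned to a gene even with strand. Neither model has a row of its own in the deposited table.

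For the comparison of DMSO with proliferating cells, which asks what irradiation and the senescent state changed, 6 of the 9 members were lower, 0 higher and 3 not called. Over all tested genes 39.3% were called lower and 33% higher, so a lower call was common. The median log2 fold change was -0.62 over the 9 members and -0.05 over all tested genes. ACTA2 was at 32.9% ± 1.71 of its proliferating mean (SD, n = 3), CNN1 at 47.0% ± 2.73 and ACTG2 at 47.1% ± 3.15. TAGLN was at 62.8% ± 2.78, TPM1 at 65.0% ± 1.55, and the members not called at 95.3% ± 5.14 (MYL9), 103% ± 3.19 (TPM2) and 103% ± 0.612 (CALD1). The groups did not overlap for those 6 members, as for 75.1% of all tested genes. The edgeR quasi-likelihood test and DESeq2 on the recovered reads each called the same number, 6 lower and 0 higher.

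For palbociclib against DMSO, which asks what the inhibitor changed in cells that were already irradiated, all 9 tested members were called higher. Over all tested genes 26% were called higher and 22.3% lower. The median log2 fold change was 0.92 over the members, with a range of 0.70 (MYL9) to 1.31 (ACTA2), and 0.02 over all tested genes. Of all tested genes, 0.276% had a log2 fold change at or above that of ACTA2 and 2.28% at or above that of MYL9. The groups did not overlap for any of the 9, as for 54.8% of tested genes. Library A120 was the highest palbociclib library for 8 of the 9 members, at a median of 0.13 (log2) above its group mean against 0.01 over all tested genes. Without A120 the median of the members was 0.87 and all 9 remained called. The plot of log2 fold changes shows these values for the 3 comparisons with DMSO cells.

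**Figure D2:**
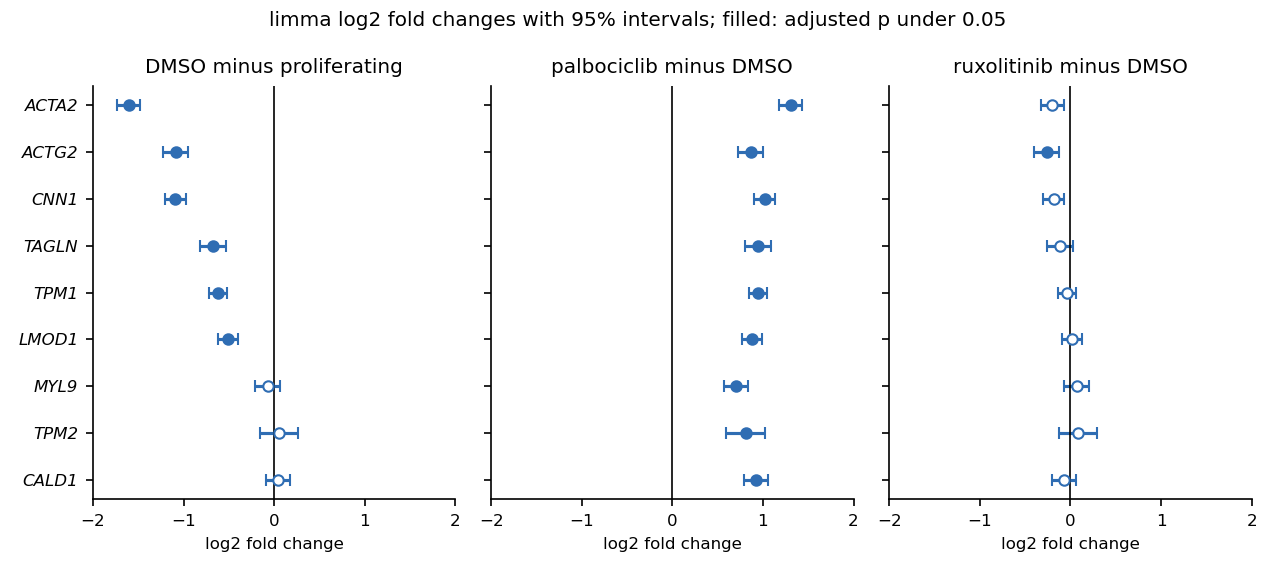
Log2 fold change (x axis) of 9 contractile genes from the limma fit, with 95% intervals, for irradiated DMSO against proliferating cells, palbociclib against DMSO and ruxolitinib against DMSO. Filled points have an adjusted p under 0.05. The left panel has 6 filled points below 0, from -0.51 to -1.61, the middle panel has 9 above 0 and the right panel has 1 filled point, ACTG2 at -0.26.

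Both comparisons above use the same DMSO libraries, so a high or low DMSO group would enter them with opposite sign. The comparison of palbociclib with ruxolitinib does not use those libraries for its fold changes. Its SEs and adjusted p-values still draw on them through the shared estimate of spread, and its palbociclib libraries are the same as above. In it all 9 members were called higher with palbociclib, where 22.8% of tested genes were called higher and 17.6% lower, with a median of 0.99 over the members and 0.02 over all tested genes. The smallest difference was in MYL9, at 0.63 (SE 0.06, adjusted p 1.59e-06), and the largest in ACTA2, at 1.50 (SE 0.06, adjusted p 5.36e-11). The groups did not overlap for any of the 9, as for 51.8% of tested genes. The 2 drugs were given at the same dose and times. TPM2 was at 0.17 (adjusted p 0.259) in this comparison when libraries were forced to the same quantiles.

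For ruxolitinib against DMSO, which asks what the Janus kinase inhibitor changed, 1 of 9 members was called lower and 0 higher, where 3.42% of tested genes were called lower and 1.1% higher. The called gene was ACTG2, at -0.26 (SE 0.06, adjusted p 0.031). That call was lost without library A117, A118, A122, A123 or A124, with adjusted p-values of 0.0893 to 0.156, and the values stayed between -0.23 and -0.27. It was also lost in a limma fit without a variance trend, at an adjusted p of 0.0954. In the same comparison ACTA2 was at -0.20 (95% interval -0.33 to -0.07, adjusted p 0.0785) and CNN1 at -0.19 (95% interval -0.30 to -0.07, adjusted p 0.071), and all 3 ruxolitinib libraries lay below all DMSO libraries for each. At the same total ACTA2 and CNN1 were also called lower, at -0.22 and -0.21, as was ACTA2 at the same quantiles, at -0.22. DESeq2 called ACTA2 and CNN1 lower as well, and a limma fit of only these groups called ACTA2, CNN1 and TAGLN. The other members lay between -0.12 (TAGLN) and 0.08 (TPM2), and every 95% interval over the 9 members lay between -0.40 and 0.29. The median over the members was -0.07, and -0.00 over all tested genes. The groups did not overlap for 6 members, as for 31.9% of tested genes.

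Against proliferating cells, palbociclib-treated irradiated cells had 6 members higher, 2 lower and 1 not called, where 35.2% of tested genes were called higher and 38.6% lower. The higher ones were CALD1 at 0.97 (adjusted p 1.03e-09), TPM2 at 0.86, MYL9 at 0.63, LMOD1 at 0.37, TPM1 at 0.33 and TAGLN at 0.27. The lower ones were ACTA2 at -0.30 and ACTG2 at -0.22, and CNN1 was not called. The 3 members not called in DMSO against proliferating cells were the 3 with the largest differences here. The groups did not overlap for any of the 9, as for 70.9% of tested genes, although for CNN1 the nearest libraries were at 4336 and 4344. With libraries set to the same upper quartile ACTG2 was at -0.09 (adjusted p 0.208), and at the same quantiles TPM1 was at 0.10 (adjusted p 0.0778). Ruxolitinib-treated cells against proliferating cells had 6 members lower and 3 not called, as DMSO cells did, where 39.5% of tested genes were called lower and 32.6% higher, and the median was -0.66 against -0.06 over all tested genes. The 3 members not called were TPM2, MYL9 and CALD1. TPM2 was called higher at the same total (0.34), upper quartile (0.31) and quantiles (0.42), as was CALD1 (0.18, 0.15 and 0.17), and MYL9 was called higher at the same total (0.20) and upper quartile (0.17). There was no overlap between groups for 6 members, as for 76.2% of tested genes.

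In sum the 10 genes took 0.940% ± 0.0297 of the listed reads in proliferating libraries (SD, n = 3). They took 0.837% ± 0.0157 with DMSO, 1.33% ± 0.109 with palbociclib and 0.805% ± 0.00930 with ruxolitinib. These shares do not depend on the scaling of libraries, and none of the groups overlapped.

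Across the 12 libraries the members fell along a range from the pattern of the actins to that of TPM2, CALD1 and MYL9. ACTA2 and ACTG2 had a Pearson r of 0.99 on the log2 scale, as did ACTA2 and CNN1. TPM1 had an r of 0.99 with TAGLN and with LMOD1, and MYL9 an r of 0.97 with TPM2. The lowest values joined these patterns, with an r for TPM2 of 0.34 with ACTA2, 0.35 with ACTG2 and 0.41 with CNN1. For CALD1 the r was 0.44 with ACTG2 and 0.45 with ACTA2. The libraries form 4 groups of 3, so each r describes mainly 4 group means and carries no test. Outside the set, 5 tested genes had the pattern most like ACTA2 over the 12 libraries. They were ZYX (r 0.995), a focal adhesion protein that follows actin tension, MTHFD2 (0.994), a mitochondrial enzyme of folate metabolism, SMAGP (0.993), a small membrane protein, PCK2 (0.993), a mitochondrial enzyme of gluconeogenesis, and YARS1 (0.991), the tyrosyl-tRNA synthetase. In all, 115 tested genes had an r above 0.95, a count that includes ACTA2 itself and the members CNN1 and ACTG2.

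Per length of the reference transcript, the tropomyosins were the most abundant members. TPM2 was at 26327 ± 2851 normalized counts per kb in proliferating cells (SD, n = 3), at 27220.3 ± 841 under DMSO, at 48190.0 ± 9005 with palbociclib and at 28784 ± 360.2 with ruxolitinib. That level ranked 17, 14, 6 and 15 of 15147 genes with a length. TPM1 followed at 23264 ± 476 per kb in proliferating cells and 15129.7 ± 360.4 with DMSO. TPM2 lay above TPM1 in every library, by the least in proliferating cells, where the lowest TPM2 library was at 24501 and the highest TPM1 library at 23586. In proliferating cells ACTA2 (11443 ± 352), ACTG2 (10424 ± 60.8) and TAGLN (9526 ± 245) came next, then MYL9 (7216 ± 205), CALD1 (5920 ± 436), CNN1 (2931 ± 32.1) and LMOD1 (377 ± 5.67), and no neighbours in this order overlapped. With DMSO MYL9 (6873 ± 371) came after the tropomyosins, then CALD1 (6076 ± 36.2) and TAGLN (5978 ± 265), which overlapped, and ACTA2 (3763 ± 195) stood below ACTG2 (4907 ± 328). With palbociclib TAGLN (11562 ± 1320), CALD1 (11555 ± 815) and MYL9 (11209 ± 1062) overlapped with each other and lay above ACTA2 (9317 ± 796) and ACTG2 (8961 ± 906), which also overlapped. The reference transcripts of TAGLN (3786 bases) and MYL9 (2786 bases) are long for coding lengths of 603 and 516 bases, and the form that these cells make was not measured. For TPM1 the reference transcript has 1217 bases, while its annotated exons together cover 14700. Per coding length TAGLN led the members in proliferating cells, at 59810.1 ± 1536 per kb, ahead of MYL9, TPM2 and TPM1, so the order at the top rests on the length used. ACTB, the main cytoplasmic actin, was at 131113 ± 6444 per kb of reference transcript in proliferating cells and 66521 ± 1741 with DMSO, above every member in each group by either length.

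The non-muscle paralogs of the members serve the actin and myosin filaments of cells other than muscle. Of 13 genes listed as such, 11 were lower after irradiation, 1 higher and 1 not called, with a median log2 fold change of -0.87. In that comparison 39.3% of all tested genes were called lower and 33% higher. The list includes MYL6, an essential light chain that smooth muscle myosin also carries, which is not a non-muscle counterpart of MYL9. MYH10 fell by 2.12, MYH9 by 1.15, TAGLN2 by 1.15 and TPM4 by 1.12 on the log2 scale (adjusted p 2.62e-12 to 4.42e-11). MYH9 and MYH10 are non-muscle myosin heavy chains, which stood in these cells where MYH11 was at or near 0. ACTB changed by -0.98 and ACTG1 by -0.87. As for CALD1, counts per gene do not separate the transcript forms of TPM1 and TPM2. The plot of levels relative to the proliferating mean sets members and paralogs side by side.

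**Figure D3:**
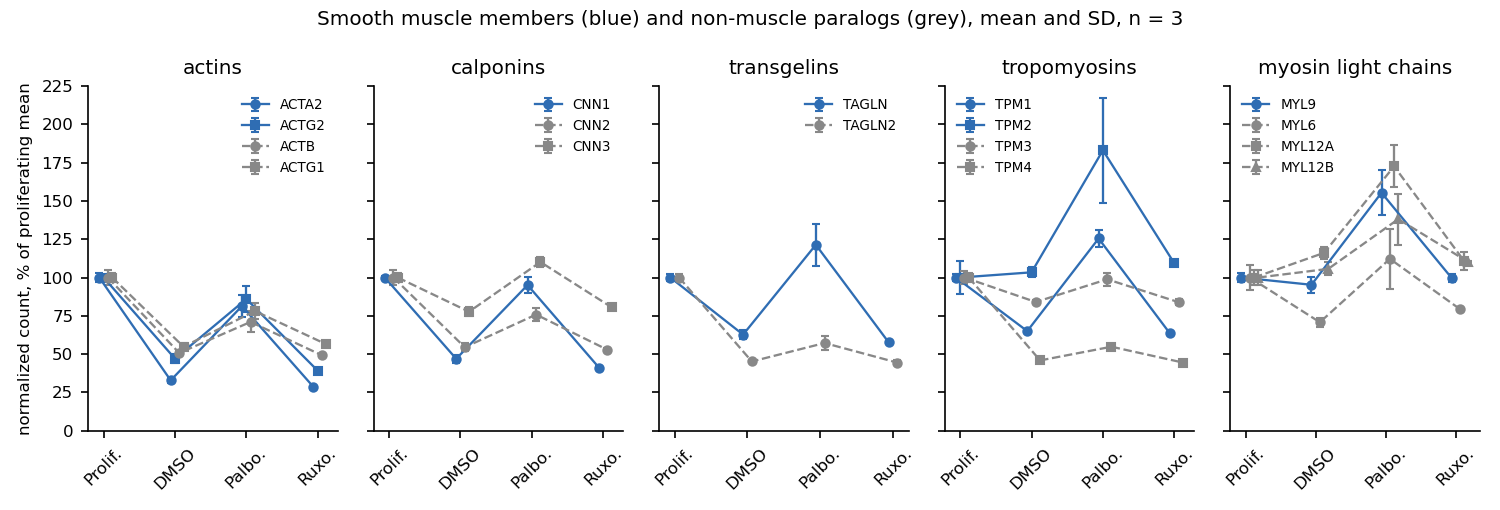
Normalized count as a percent of the proliferating mean (y axis, from 0) for members (blue, solid) and non-muscle paralogs (grey, dashed) in 5 families, in proliferating cells (Prolif.) and in irradiated cells given DMSO, palbociclib (Palbo.) or ruxolitinib (Ruxo.). Points are means and bars the SD of 3 libraries. MYL6 is drawn in grey, although smooth muscle myosin carries it too. TAGLN2 and TPM4 stay at 57.2% and 54.8% with palbociclib, while TAGLN, TPM1 and TPM2 stand at 121%, 125% and 183%. That split is not general. With palbociclib the paralogs TPM3, CNN3 and MYL12A are at 98.8%, 110% and 173%, and the members ACTA2, ACTG2 and MYL9 at 81.4%, 86.0% and 155%.

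With palbociclib 12 of the 13 listed genes were higher than with DMSO and 1 was not called, at a median of 0.43. Among all tested genes 26% were called higher there and 22.3% lower. MYL6 rose by 0.65, MYL12A by 0.57, ACTG1 by 0.51 and CNN3 by 0.50 (adjusted p 3.27e-05 to 4.66e-07 among these 4). The smallest member change, MYL9 at 0.70 (SE 0.06), was larger than each of these 13 changes under the authors' scaling. The nearest was MYL6 at 0.65 (SE 0.09), a gap smaller than either SE, so the order of MYL9 and MYL6 was not resolved. The paralog calls depended more on the scaling than those of the members. At the same total 8 were higher and 1 lower, and at the same quantiles 5 were higher and 2 lower, with ACTB at -0.16 (adjusted p 0.0753) and MYH9 at -0.19.

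Ratios within a family do not depend on the scaling of whole libraries by a factor. The ratio of ACTA2 to ACTB counts was 0.0651 ± 0.00508 in proliferating cells (SD, n = 3), 0.0421 ± 0.00164 under DMSO, 0.0747 ± 0.00537 with palbociclib and 0.0378 ± 0.000782 with ruxolitinib. All palbociclib libraries were above all proliferating ones for this ratio, and all DMSO and ruxolitinib libraries below them. The ratio of TPM1 to TPM3 was 2.05 ± 0.0782, 1.59 ± 0.0625, 2.60 ± 0.0184 and 1.55 ± 0.0176 in the same order of groups. That of CNN1 to CNN2 was 0.444 ± 0.0234, 0.382 ± 0.0105, 0.556 ± 0.00810 and 0.346 ± 0.000684. The ratio of ACTG2 to ACTG1 was 0.117 ± 0.00365, 0.1001 ± 0.00238, 0.128 ± 0.00425 and 0.0811 ± 0.00128. These 4 ratios had the same order, with palbociclib above proliferating and proliferating above DMSO, and no overlap between those groups. Against CNN3 in place of CNN2, CNN1 had another order. That ratio was 0.504 ± 0.0142 in proliferating cells, 0.305 ± 0.0216 under DMSO, 0.435 ± 0.0356 with palbociclib and 0.258 ± 0.0101 with ruxolitinib, and all proliferating libraries lay above all palbociclib ones.

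For TAGLN and TPM2 the ratio to a paralog was higher in all irradiated libraries than in the proliferating ones. The ratio of TAGLN to TAGLN2 was 2.36 ± 0.00861 in proliferating cells, 3.27 ± 0.118 under DMSO, 4.99 ± 0.152 with palbociclib and 3.06 ± 0.0933 with ruxolitinib. The ratio of TPM2 to TPM4 was 0.482 ± 0.0656, 1.08 ± 0.0430, 1.61 ± 0.312 and 1.18 ± 0.0279. TAGLN thus fell after irradiation in counts but not in its share of the transgelin pair. The ratio of MYL9 to MYL12A was 2.24 ± 0.0638, 1.83 ± 0.0540, 2.01 ± 0.0307 and 2.02 ± 0.142, lower in all irradiated libraries than in the proliferating ones.

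Among SRF, its coactivators and other regulators of smooth muscle genes, 11 of 20 genes were lower after irradiation and 6 higher, and with palbociclib 4 were lower and 3 higher than with DMSO. The medians were -0.26 and -0.03. Of all tested genes, 39.3% were called lower and 33% higher after irradiation, and 22.3% lower and 26% higher with palbociclib. At the same total 9 were lower and 7 higher after irradiation. With palbociclib 13 were then lower and 1 higher, at a median of -0.26, with MRTFA and MRTFB among the lower ones. At the same total the median over all tested genes was itself 0.18 after irradiation and -0.21 with palbociclib, so the list lay near the general shift with palbociclib. Shares of all tested genes called at the same total were not counted. SRF was at 2105, 2103 and 2075 normalized counts in the proliferating libraries, 1118, 1094 and 1146 with DMSO, 1301, 1357 and 1245 with palbociclib and 1058, 1066 and 1083 with ruxolitinib. It fell by 0.90 on the log2 scale after irradiation (adjusted p 2.06e-10). The palbociclib libraries lay above the DMSO libraries, at 0.22 (adjusted p 0.0023), and far below the proliferating ones, and at the same total that difference was -0.01 (adjusted p 0.888).

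MYOCD, the coactivator restricted mostly to heart and smooth muscle, went the other way from the members under palbociclib. It was at 775, 633 and 831 in the proliferating libraries, 263, 259 and 297 with DMSO, 141, 135 and 157 with palbociclib and 178, 211 and 245 with ruxolitinib. The palbociclib libraries were the lowest of all. MYOCD had a log2 fold change of -1.44 (SE 0.12, adjusted p 3.74e-08) after irradiation and -0.92 (SE 0.12, adjusted p 2.26e-05) with palbociclib against DMSO, and both calls held under every alternative run. MRTFB fell by 0.95 after irradiation (adjusted p 2.13e-06) and was at -0.22 (adjusted p 0.132) with palbociclib. MRTFA was at -0.18 (adjusted p 0.00768) after irradiation, a call that 3 other scalings and DESeq2 did not keep, and at -0.01 (adjusted p 0.847) with palbociclib. RNA levels do not show where in the cell the MRTF proteins were.

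The other regulators with the largest changes after irradiation were KLF4, a repressor of smooth muscle genes, at 2.62 (adjusted p 2.94e-09), PRRX1, a homeobox factor of mesenchymal cells, at -2.37 (adjusted p 6.45e-13), and TEAD4, a partner of YAP, at -1.64 (adjusted p 1.97e-09). With palbociclib PRRX1 was lower again, at -0.58 (adjusted p 3.04e-05). KLF5 was not called after irradiation, at 0.10 (adjusted p 0.314). Against DMSO it was at -0.49 (adjusted p 0.000255) with palbociclib and at -0.60 (adjusted p 0.000412) with ruxolitinib. FHL2, a cofactor of SRF, was at 0.43 (adjusted p 3.29e-05) with palbociclib and at 0.54 (adjusted p 8.46e-07) after irradiation.

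Among other smooth muscle genes, DES, ITGA8 and SYNM moved against the members under palbociclib. SMTN was not called on the authors' scaling, and CSRP1, one of the filament partners below, was higher by 0.89. DES, the muscle intermediate filament desmin, was at 107, 90.9 and 83.8 normalized counts in the proliferating libraries, 94.0, 65.1 and 70.5 with DMSO, 38.7, 42.7 and 25.8 with palbociclib and 27.0, 36.9 and 40.6 with ruxolitinib. All libraries with either drug lay below all others. ITGA8, an integrin chain of smooth muscle, was at 307, 262 and 311, then 261, 309 and 275, then 169, 117 and 147, and 198, 174 and 177 in the same order, with the same separation. With palbociclib against DMSO, DES changed by -1.09 (SE 0.22, adjusted p 0.000777) and ITGA8 by -0.97 (SE 0.13, adjusted p 1.68e-05). With ruxolitinib against DMSO they changed by -1.12 (adjusted p 0.00663) and -0.62 (adjusted p 0.00873), and the ITGA8 call was lost without library A117 or A123, with an adjusted p of up to 0.0607. SYNM, another intermediate filament gene, changed by -0.61 (adjusted p 9.21e-05) with palbociclib, and SMTN, smoothelin, was at -0.04 (adjusted p 0.502), although it was called lower at the same total and the same quantiles. The plot of regulators and markers shows these genes by library.

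**Figure D4:**
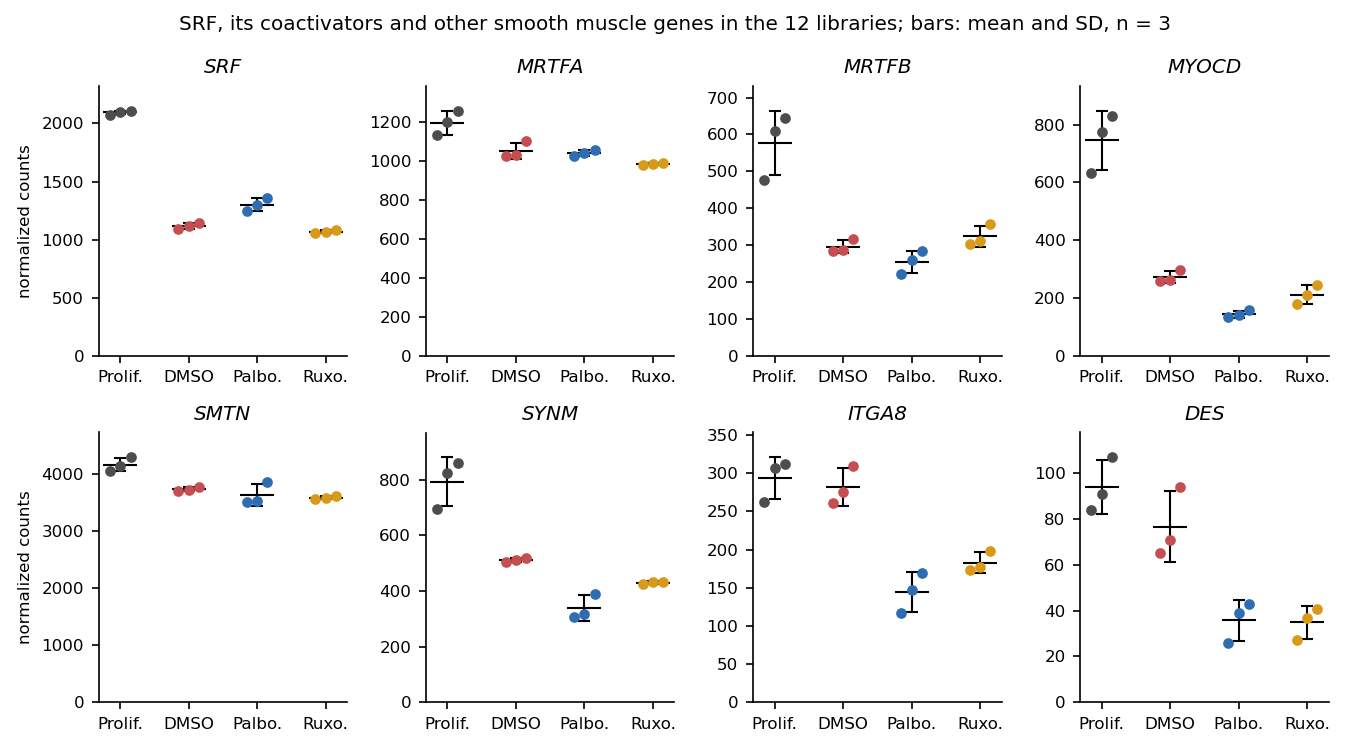
Normalized counts (y axis, from 0) of SRF, its coactivators MRTFA, MRTFB and MYOCD and the smooth muscle genes SMTN, SYNM, ITGA8 and DES in proliferating cells (Prolif.) and in irradiated cells given DMSO, palbociclib (Palbo.) or ruxolitinib (Ruxo.). Points are libraries, drawn in order of value within a group, and bars are the mean and SD of 3 libraries. For MYOCD and SYNM the 3 palbociclib libraries are the lowest of the 12, and for DES and ITGA8 both drug groups lie below the DMSO group.

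Of 22 partners of the filaments at adhesions and in the cytoskeleton, 17 were lower after irradiation and 2 higher, at a median of -0.44. The largest decreases were FLNA, filamin A, at -1.16, TGFB1I1, the focal adhesion adaptor Hic-5, at -1.07, ITGA1 at -0.99 and LPP at -0.97 (adjusted p 8.45e-11 to 4.02e-06). With palbociclib 13 were higher and 4 lower than with DMSO, at a median of 0.35. Besides DES and ITGA8, the largest changes were CSRP1, a LIM protein of smooth muscle, at 0.89 (adjusted p 2.14e-09) and CAV1, caveolin, at 0.78 (adjusted p 5.56e-09). At the same total 10 were higher and 7 lower with palbociclib, at a median of 0.12 against -0.21 over all tested genes. On the authors' scaling 39.3% of all tested genes were called lower and 33% higher after irradiation. With palbociclib 26% were called higher and 22.3% lower.

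Among 12 genes of the TGF-beta pathway, 7 were lower and 3 higher after irradiation, and 5 higher and 2 lower with palbociclib. At the same total 3 were lower and 4 higher after irradiation, and 1 higher and 5 lower with palbociclib. The list medians were then 0.05 and -0.15, and those over all tested genes 0.18 and -0.21. The shares over all tested genes, on the authors' scaling, were 39.3% lower and 33% higher after irradiation. They were 26% higher and 22.3% lower with palbociclib. The receptor TGFBR2 rose by 1.31 after irradiation (adjusted p 1.68e-10), the ligand TGFB2 by 0.94 (adjusted p 1.28e-06) and the inhibitory SMAD7 by 0.92 (adjusted p 3.17e-09), and SMAD4 fell by 0.53. With palbociclib TGFB2 was higher again, at 0.54 (adjusted p 0.000932), SMAD7 lower at -0.53 (adjusted p 7.98e-06), TGFBR3 lower at -0.44 and SMAD2 higher at 0.27. The TGFBR3 call was lost without library A118 or A120, and that of SMAD2 at the same total. TGFB2 and SMAD7 kept their calls under every alternative run.

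Summed marker levels also differed between the groups. That of the 9 fibroblast markers, most of it COL1A1 and COL1A2, was 815199 to 848330 normalized counts in proliferating libraries, 405445 to 416193 with DMSO, 646247 to 679139 with palbociclib and 512257 to 516291 with ruxolitinib, with 0 of the 9 at or under 3 reads in any group. The 10 markers of differentiated smooth muscle summed to 7209 to 7863, 5918 to 5949, 6054 to 6415 and 5422 to 5567 in the same order. The 6 pericyte markers, mostly PDGFRB, CSPG4 and NOTCH3, summed to 14247 to 15785, 7695 to 8075, 9890.3 to 11085 and 8430.0 to 8485. The fibroblast and pericyte sums were lower with DMSO than in proliferating cells and higher with palbociclib than with DMSO, without overlap, as was the sum of the contractile genes. Unlike the contractile sum, both stayed below the proliferating range with palbociclib and lay above the DMSO range with ruxolitinib. The 6 endothelial markers summed to 1719 to 1963, 2401 to 2569, 3503 to 4380.1 and 2264 to 2270.3, nearly all of it TEK, while CDH5 had 3 reads or fewer in any library. The 5 epithelial markers summed to 99.03 to 143, 266 to 309, 376 to 501 and 297 to 348. The 6 immune markers summed to 555 to 579, 1244 to 1325, 699 to 815 and 1097 to 1172. The part of these levels in the contractile differences was not tested. Among 16 skeletal and cardiac muscle genes, 2 had a mean of at least 10 normalized counts. The defining factors MYOD1, MYOG and MYF5 had 2 reads or fewer in any library.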

How the data were processed

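Poly(A) RNA of 12 IMR90 libraries was sequenced. The signal values that the authors deposited are normalized counts for each Entrez gene and library. Per the submitters' processing notes, Trimmomatic 0.38.1, HISAT2 2.2.1, featureCounts 2.0.3, FastQC 0.74, MultiQC, DESeq2 2.11.40.8 and the build hg38 (GRCh38) were used, with no role or order given. The annotation and the strand setting are not given in the sources used here. The listed genes end at Entrez number 140467, so totals are those of listed genes and not library depths. All 160380 values above 0 (100.0%) were whole multiples of a step per column, within 0.01 reads, so read counts could be recovered. In column A116 the step is close to 1 and says little alone. Column names give the group and a library number but no replicate number, and the labels name no batch.

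Groups were compared on log2 values, after a pseudocount of 1 was added to each normalized count, by limma 3.58.1 under R 4.3.3. Its model of 4 group means spanned all 12 libraries, with moderated variances that follow the level and Benjamini-Hochberg adjustment over the 11242 genes with a mean of at least 10. Genes were called at an adjusted p under 0.05, and every adjusted p is from this fit unless another tool is named. Fold changes on this scale understate the change of low genes. The recovered reads were also tested with the edgeR 4.0.16 quasi-likelihood test and with DESeq2 1.42.0. Over all genes edgeR called 8150 for DMSO against proliferating, 5374 for palbociclib against DMSO and 556 for ruxolitinib against DMSO, where limma called 8134, 5432 and 508. Other scalings, pseudocounts and filters and leaving out each library were also tried. The limma code was tested on simulated data.

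The members, the supporting lists and the tests were chosen with earlier results of these data known. Named genes are all members, up to 4 genes per supporting list and comparison that were called, reached a mean of 50 in the group where they were higher and changed most, SRF, MYOCD, MRTFA, MRTFB, ACTB and ACTG1, cell type markers, and the 5 genes most like ACTA2. MYL12A, TPM3, CNN2 and CNN3 are also named or plotted as paralogs of members, MYL6 as a gene listed with them, and SMTN and SYNM as markers. Gene coordinates come from RefSeq, and strands, exons, exon overlaps and lengths from GENCODE v44, both on GRCh38. All columns of values were used. The results of 1 supporting list are not reported here.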

Additional observations from a re-analysis of the deposited data

How the results depend on the processing

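Depth limited MYH11 alone among the members. No paired analysis was possible because the columns carry no replicate number. In DMSO against proliferating cells the 6 lower calls held under every alternative, and the 9 higher calls with palbociclib against DMSO held except that of TPM2 at the same quantiles. Why results moved with the scaling was not tested beyond the shifts of the median gene given above. Higher calls in DMSO against proliferating were 3 at the same total, 1 at the same upper quartile and 2 at the same quantiles. In ruxolitinib against proliferating they were 3, 3 and 2. The median over all tested genes also moved under these scalings, to 0.18, 0.11 and 0.02 for DMSO against proliferating. For ruxolitinib against proliferating it was 0.15, 0.12 and 0.04. Shares of all tested genes called under these scalings were not counted. Medians over the members at the same total, upper quartile and quantiles were -0.39, -0.46 and -0.38 for DMSO against proliferating (edgeR -0.56, DESeq2 -0.56) and -0.45, -0.48 and -0.54 for ruxolitinib against proliferating (edgeR -0.59, DESeq2 -0.59). At the same total and quantiles they were 0.70 and 0.56 for palbociclib against DMSO, 0.79 and 0.74 for palbociclib against ruxolitinib, and -0.0944 and -0.17 for ruxolitinib against DMSO. For palbociclib against proliferating the median was 0.46 at the same upper quartile, with 1 lower call, and 0.17 at the same quantiles. Lower calls in ruxolitinib against DMSO were 3 at the same total, 2 at the same quantiles, 0 without a variance trend, 4 in a fit of those groups alone and 3 with DESeq2. Leaving out libraries gave 0 to 3, with a median of -0.0925 to -0.0559.

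Genes near 0 changed sign. MYL9 in DMSO against proliferating was 0.16, 0.0879 and 0.0436 at the same total, upper quartile and quantiles, and in ruxolitinib against proliferating 0.20, 0.17 and 0.0663, and 0.0625 with edgeR and 0.0614 with DESeq2. CALD1 in ruxolitinib against proliferating was 0.18, 0.15 and 0.17, and 0.0348 with edgeR and 0.0335 with DESeq2. LMOD1 in ruxolitinib against DMSO was -0.006 at the same total, and CNN1 in palbociclib against proliferating was 0.0545 at the same upper quartile. With a library left out, CALD1 in DMSO against proliferating ranged from -0.0221 (without A126) to 0.076 and LMOD1 in ruxolitinib against DMSO from -0.0185 (without A117) to 0.0533. In ruxolitinib against proliferating, MYL9 ranged from -0.0165 to 0.0203 (without A126) and CALD1 from -0.0914 to 0.0068 (without A125).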
